A study of Mus musculus with 8 samples.

Results

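The 10 genes described here are core parts of the JAK-STAT pathway, a route from cytokine receptors to the nucleus. They are the receptor chain Il6st, the kinases Jak1 and Jak2, the transcription factors Stat3, Stat5a and Stat5b, and the inhibitors Socs1, Socs2, Socs3 and Cish. They were picked by name from the 41388 genes in the tables, and all 10 had enough reads to be tested. The RNA came from macrophages of epididymal white adipose tissue, the fat depot beside the epididymis, of male MitoFat mice fed normal chow, 4 animals in all. In these mice a reporter marks the mitochondria of adipocytes, so that a macrophage carrying the signal (mtD2+) holds mitochondria received from a fat cell. Every library came from a reporter mouse, and each mouse gave both an mtD2+ and an mtD2- population. Each population was sorted as live CD45+ F4/80+ CD64+ cells after collagenase digestion, which makes 8 libraries, 4 per group. No label states the driver of the reporter, the age of the mice or the number of sorted cells. The design asks how macrophages that received adipocyte mitochondria differ from those of the same fat pad that did not.

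A cytokine of the interleukin 6 or interleukin 10 kind brings its receptor chains together, and the JAK kinases bound to those chains then phosphorylate each other, the receptor and a STAT protein. The phosphorylated STAT enters the nucleus and turns on genes, among them those of the SOCS family, whose proteins bind the receptor or the kinase and stop the signal. In macrophages, STAT3 carries the anti-inflammatory signal of interleukin 10, STAT5 the growth signal of GM-CSF, and SOCS3 limits signalling through Il6st. The activity of these proteins is set by phosphorylation, which RNA levels do not measure.

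STAT dimers bind the palindrome TTCNNNGAA, whose reverse complement is the same motif. It was searched in the RefSeq promoters of the build GRCm38.p6, from 250 bases before to 50 bases after the annotated start, for the 9 members with an entry. Socs3 and Cish, 2 of the 9, held it. Counted per window rather than per gene, 8.3% of the 32851 promoter windows of all genes held it, and the 9 members had 11 windows. The longer form with 4 bases between the arms, TTCNNNNGAA, was in none of the members' windows and in 6.95% of all windows. Socs3 had a single match whose first base lay 154 bases before the start (chr11:117969512-117969520, minus strand). Cish had a pair, 1 beginning at the start itself (chr9:107296659-107296667, plus strand) and the other 11 bases further on (chr9:107296670-107296678). The RefSeq starts of Socs3 and Cish lie inside the gene spans used for counting, given with each gene below, and so do these matches. A match describes the letters in the window and is no evidence of binding in these cells. The sequences, from 200 bases before to 30 after the start, are the promoters of Stat3, the member whose RNA differed between the populations (chr11:100939511-100939740, minus strand), and of the inhibitor genes with a match, Socs3 (chr11:117969337-117969566, minus strand) and Cish (chr9:107296459-107296688, plus strand). Capitals mark the matches to TTCNNNGAA, and each sequence runs 5′ to 3′ along its gene.
Stat3: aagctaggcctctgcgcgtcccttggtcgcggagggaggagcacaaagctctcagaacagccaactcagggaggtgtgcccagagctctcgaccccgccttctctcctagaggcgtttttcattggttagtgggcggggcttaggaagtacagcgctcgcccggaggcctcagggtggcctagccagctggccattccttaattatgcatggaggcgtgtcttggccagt
Socs3: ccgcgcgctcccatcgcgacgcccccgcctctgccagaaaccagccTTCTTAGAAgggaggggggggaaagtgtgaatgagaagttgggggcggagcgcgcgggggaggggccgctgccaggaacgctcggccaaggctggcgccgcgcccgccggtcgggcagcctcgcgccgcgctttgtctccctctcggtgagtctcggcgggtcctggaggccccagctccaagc
Cish: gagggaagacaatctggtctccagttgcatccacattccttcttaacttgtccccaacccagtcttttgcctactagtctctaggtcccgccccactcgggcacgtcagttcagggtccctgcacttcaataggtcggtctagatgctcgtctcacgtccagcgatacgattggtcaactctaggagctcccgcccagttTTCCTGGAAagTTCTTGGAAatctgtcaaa

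Stat3 RNA was 1.88-fold higher in mtD2+ macrophages, and it was the only member to pass the test. The other 9 members, the SOCS genes included, did not pass. Of the 10 members 1 was called higher in mtD2+, beside 3.72% of the 13933 genes tested, and 0 were called lower, beside 1.78%. Those counts come from edgeR's quasi-likelihood test with a Benjamini-Hochberg adjusted p under 0.05 over all tested genes. At an unadjusted p under 0.05 the members gave 1 higher and 0 lower. The share of all tested genes at that threshold was not computed, so the unadjusted counts here and below have no background. The tests of DESeq2 and limma voom also called 1 and 0 of the members. Over all genes DESeq2 called 1117 higher and 673 lower of the 24020 with any count, and limma voom 694 and 372 of 13933. DESeq2 gives no adjusted p to genes dropped by its own low-count filter. Their number was not computed, so the share of genes it could call is higher than these counts give. The median log2 fold change of mtD2+ over mtD2- was 0.06 over the 10 members and -0.0006 over all tested genes. Stat3 was also the only member whose groups did not overlap with mtD2+ above mtD2-, a pattern that 6.55% of tested genes showed. Levels are CPM, read counts scaled to a common library size with TMM factors unless another scale is named. In bulk RNA, fewer cells of a type and less RNA per cell cannot be told apart.

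**Figure D1:**
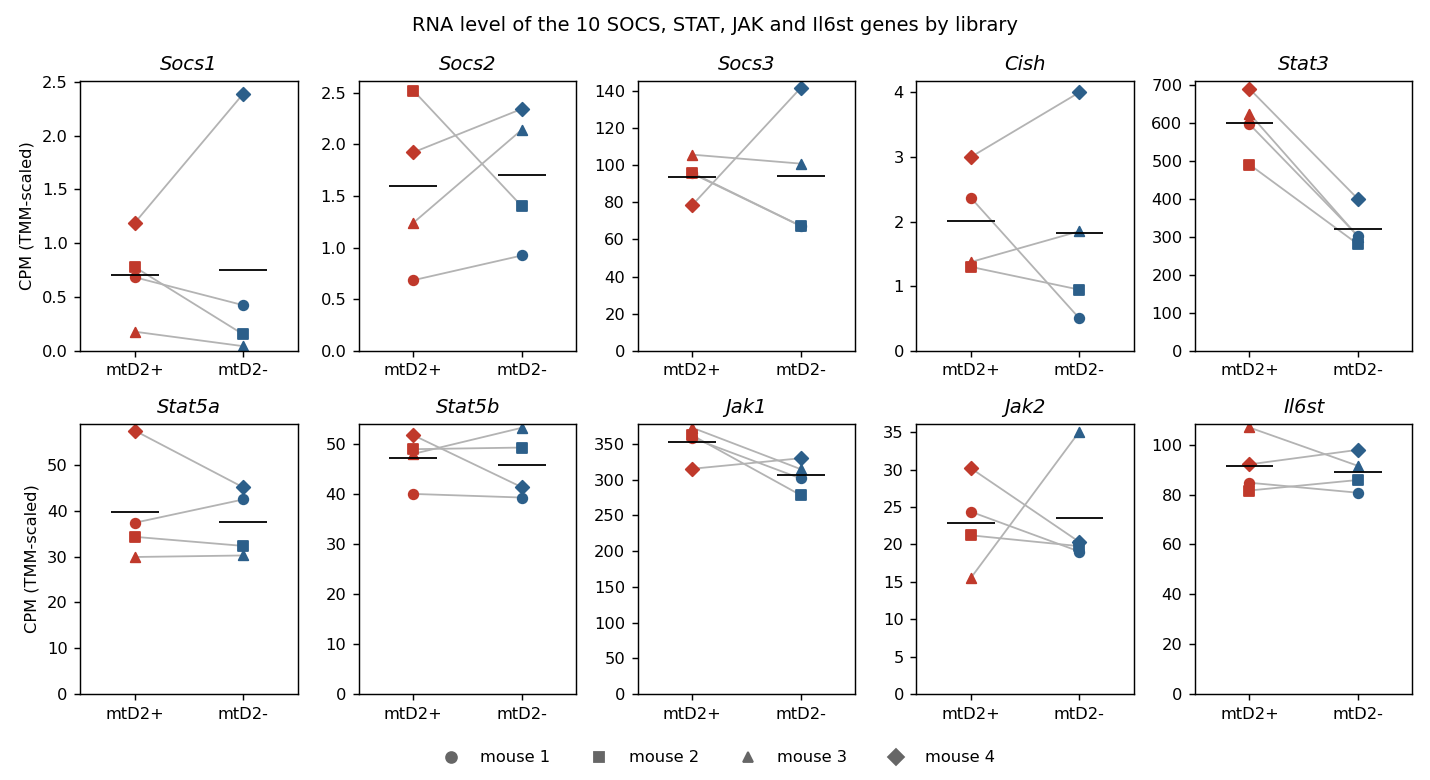
Level of each member in CPM (TMM-scaled, linear axis from 0) in mtD2+ and mtD2- libraries, with 1 symbol per mouse, grey lines joining the libraries of a mouse and black bars at the group means. All 4 lines of Stat3 run the same way, with 491 to 691 CPM in mtD2+ and 280 to 400 CPM in mtD2-, while the groups of every other member overlap.

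The libraries held 18462287 to 27464399 gene-assigned counts. Ptprc, the gene of CD45, did not pass (log2 fold change 0.02, adjusted p = 0.938). Adgre1, the gene of F4/80, was lower in mtD2+ (-0.55, adjusted p = 0.0336), a call lost without mouse 1, 3 or 4 (adjusted p 0.165, 0.160 and 0.0764) and without the block (0.0737). Fcgr1, the gene of CD64, was at -0.44 (adjusted p = 0.0554), and it was called lower with library totals, the 1 CPM filter, DESeq2 and limma voom (adjusted p 0.0437, 0.0477, 0.00938 and 0.0354). Fibroblast and adipocyte precursor markers summed to 644 to 948 CPM in mtD2+ libraries and 1909.8 to 4798 CPM in mtD2- libraries. Of the 18 tested, 11 fell in mtD2+, and none of the list's 19 genes was at 0 in all libraries. A list of 26 dissociation-responsive genes had 9 that rose in mtD2+, with sums of 30252 to 35033 CPM in mtD2+ and 16854 to 33369 CPM in mtD2-. The number that rose was 2, 5, 2 or 16 when mouse 1, 2, 3 or 4 was left out, and 2 without the block. B cell markers summed to 19.6 to 33.6 CPM in mtD2+ and 37.1 to 57.4 CPM in mtD2-, with 1 of 4 tested called lower. Pan-macrophage markers summed to 17265 to 21118 CPM in mtD2+ and 20564 to 23856 CPM in mtD2-, with 1 of 12 called higher and 2 lower, and their sum was lower in mtD2+ in 4 of 4 mice. Adipocyte markers summed to 114 to 260 CPM in mtD2+ and 104 to 174 CPM in mtD2-. Of the 9 tested, 0 were called, 8 had a positive log2 fold change, and the median was 0.50. The fibroblast and B cell sums did not overlap between the groups, while the dissociation, pan-macrophage and adipocyte sums did. The part of these lists in the results was not tested. The mtD2- library of mouse 4 was highest in its group on the fibroblast and dissociation sums, at 4798 CPM for the fibroblast markers and 33369 CPM for the dissociation genes. It also lay farthest from the other libraries on the first principal component (81.1, against -60.5 to 28.3). Results that rest on mouse 4 are given with and without it.

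Il6st encodes gp130, the receptor chain shared by interleukin 6, LIF and oncostatin M (chromosome 13, 112464070 to 112510086). It had 84.8, 81.7, 107 and 92.2 CPM in the mtD2+ libraries of mice 1 to 4, against 80.8, 85.9, 91.5 and 98.0 CPM in the mtD2- libraries. The groups overlapped almost whole, and mtD2+ was higher in 2 of 4 mice. Its log2 fold change was 0.03 (SE 0.11, adjusted p = 0.892), and its sign turned when libraries were scaled by their totals (-0.02) and without mouse 3 (-0.02).

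Jak1 encodes a kinase that many receptors of this pathway use (chromosome 4, 101152367 to 101265282). It had 359, 362, 373 and 315 CPM in mtD2+, against 302, 278, 315 and 330 CPM in mtD2-, in mice 1 to 4. Mice 1 to 3 had more in mtD2+, and mouse 4 had slightly more in mtD2-. The log2 fold change was 0.20 (SE 0.11), which did not pass (adjusted p = 0.321) and stayed between 0.14 and 0.29 under the 11 other settings tried.

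Jak2 encodes the kinase of the interferon gamma, GM-CSF and growth hormone receptors (chromosome 19, 29251828 to 29313080). It had 24.4, 21.2, 15.5 and 30.2 CPM in mtD2+, against 19.0, 19.8, 35.1 and 20.3 CPM in mtD2-. Mouse 3 stood apart, with the lowest mtD2+ value and the highest mtD2- value, while the other 3 mice were higher in mtD2+. The log2 fold change was -0.03 (SE 0.28, adjusted p = 0.967), and without mouse 3 it was 0.35 (adjusted p = 0.409).

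Stat3 (chromosome 11, 100885098 to 100939540, minus strand) encodes the transcription factor that answers interleukin 6 and interleukin 10, and its own gene is one of its known targets. It had 597, 491, 625 and 691 CPM in the mtD2+ libraries of mice 1 to 4, against 302, 280, 301 and 400 CPM in the mtD2- libraries. Every mtD2+ library lay above every mtD2- library. The means were 601 ± 83.1 CPM in mtD2+ and 321 ± 53.6 CPM in mtD2- (SD, n = 4 mice each). Stat3 RNA therefore rose by 0.91 on the log2 scale (SE 0.10, adjusted p = 0.00323), 51st of all tested genes by p. Within the mice the log2 ratio of mtD2+ over mtD2- was 0.98, 0.81, 1.06 and 0.79. These values rest on 12207 to 14112 reads per mtD2+ library and 7150 to 8691 per mtD2- library. Each of the 11 other settings also called Stat3 higher, with log2 fold changes from 0.85 to 0.95 and adjusted p of at most 0.0343.

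The STAT5 proteins, encoded by the neighbouring genes Stat5a and Stat5b, carry signals of GM-CSF, growth hormone and prolactin. Stat5a (chromosome 11, 100859351 to 100885169) had 37.4, 34.4, 29.9 and 57.6 CPM in mtD2+, against 42.5, 32.4, 30.3 and 45.2 CPM in mtD2-. Stat5b (chromosome 11, 100780731 to 100850724) had 39.9, 48.9, 47.9 and 51.7 CPM in mtD2+, against 39.2, 49.2, 53.2 and 41.3 CPM in mtD2-. Mouse 4 gave the largest excess of mtD2+ for both genes, and the groups overlapped for both. The log2 fold changes were 0.06 for Stat5a (SE 0.14, adjusted p = 0.844) and 0.05 for Stat5b (SE 0.13, adjusted p = 0.870), each -0.04 without mouse 4. Stat5b also turned to -0.01 with library totals. The genes are near-identical over part of their length, since 608 of the 50-base stretches in their exons occur in both, so reads may be divided uncertainly between them. Summed, they gave a log2 fold change of 0.05 (adjusted p = 0.853). Stat3 and Stat5a end tail to tail and share 72 exonic bases on opposite strands. No label says whether the counting used strand, and reads from those bases cannot be assigned to 1 of the genes without it. Stat5a had at most 1105 counts in a library, against at least 7150 for Stat3.

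Socs3 encodes the inhibitor that binds Il6st and blocks the JAK beside it, and it is itself induced by STAT3 (chromosome 11, 117966079 to 117970047). It had 95.6, 96.0, 106 and 78.4 CPM in mtD2+, against 67.2, 67.3, 101 and 142 CPM in mtD2-. Mice 1 and 2 were higher in mtD2+, mouse 3 was nearly level, and mouse 4 held the lowest mtD2+ and the highest mtD2- value of all. The means were 94.0 ± 11.4 CPM in mtD2+ and 94.3 ± 35.4 CPM in mtD2- (SD, n = 4 mice each). The log2 fold change was 0.06 (SE 0.22, adjusted p = 0.894). Without mouse 4 it was 0.36 (adjusted p = 0.195), and without mouse 1 or 2 it was -0.09. Stat3 and Socs3, transcription factor and target, thus stood at log2 ratios of 0.98 and 0.51 in mouse 1, 0.81 and 0.51 in mouse 2, 1.06 and 0.07 in mouse 3, and 0.79 and -0.85 in mouse 4.

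Socs1, whose protein inhibits JAK kinases after interferon signals (chromosome 16, 10783808 to 10785536), was near the limit of detection. It had 15, 21, 4 and 21 counts in mtD2+, against 11, 4, 1 and 52 counts in mtD2-. The mtD2- library of mouse 4 stood far above the other 3 of its group, at 2.39 CPM against 0.0421 to 0.423 CPM. The log2 fold change was 0.85 (SE 0.87, adjusted p = 0.608), and it was -0.08 without the mouse block. Without mouse 4 it was 1.59 and without mouse 2 it was 0.33, and neither passed. The groups overlapped, and the spread within mtD2-, 1 to 52 counts, was wider than that within mtD2+, 4 to 21 counts.

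Cish, a target of STAT5 and an inhibitor of it (chromosome 9, 107296026 to 107302784), had 52, 35, 31 and 53 counts in mtD2+, against 13, 25, 44 and 87 counts in mtD2-. That is 2.37, 1.30, 1.37 and 3.00 CPM in mtD2+ and 0.500, 0.945, 1.85 and 4.00 CPM in mtD2-. Mice 1 and 2 were higher in mtD2+, mice 3 and 4 in mtD2-. The log2 fold change was 0.41 (SE 0.64, adjusted p = 0.756), and without mouse 1 it was -0.14. Socs2, the inhibitor of growth hormone signalling (chromosome 10, 95385362 to 95417180), had 15, 68, 28 and 34 counts in mtD2+, against 24, 37, 51 and 51 counts in mtD2-. It was higher in mtD2+ in mouse 2 alone. Its log2 fold change was -0.16 (SE 0.58, adjusted p = 0.900), with a sign that turned without mouse 3 (0.06). Part of each gene's sequence occurs elsewhere: 9.35% of the 50-base stretches of Cish and 4.58% of those of Socs2 are also in another annotated gene. For Cish the main such gene is the antisense Gm17041, which had 0 counts in every library.

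Divided by gene length, the levels of the members fell into 3 tiers that were the same in both populations. Stat3, Jak1 and Socs3 were the most abundant, with means of 63.1, 48.8 and 32.5 CPM per kilobase in mtD2+ and 33.7, 42.4 and 32.6 CPM per kilobase in mtD2-. Stat5b, Il6st, Stat5a and Jak2 followed, at 8.50, 8.24, 5.58 and 4.54 CPM per kilobase in mtD2+ and 8.25, 8.02, 5.27 and 4.69 in mtD2-. Socs1, Cish and Socs2 were lowest, at 0.580, 0.313 and 0.167 CPM per kilobase in mtD2+ and 0.616, 0.284 and 0.179 in mtD2-. The tiers did not overlap in either population. By its mean Stat3 stood first in mtD2+ and second to Jak1 in mtD2-. In mtD2+ the libraries of Stat3 spanned 51.5 to 72.5 CPM per kilobase and those of Jak1 43.6 to 51.6, so the ranges touched. In mtD2- Stat3 spanned 29.4 to 42.0, which overlapped both Jak1 (38.5 to 45.7) and Socs3 (23.3 to 49.0). Within the middle tier neighbours overlapped, except Il6st and Stat5a in mtD2-. Within the lowest tier all neighbours overlapped.

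**Figure D2:**
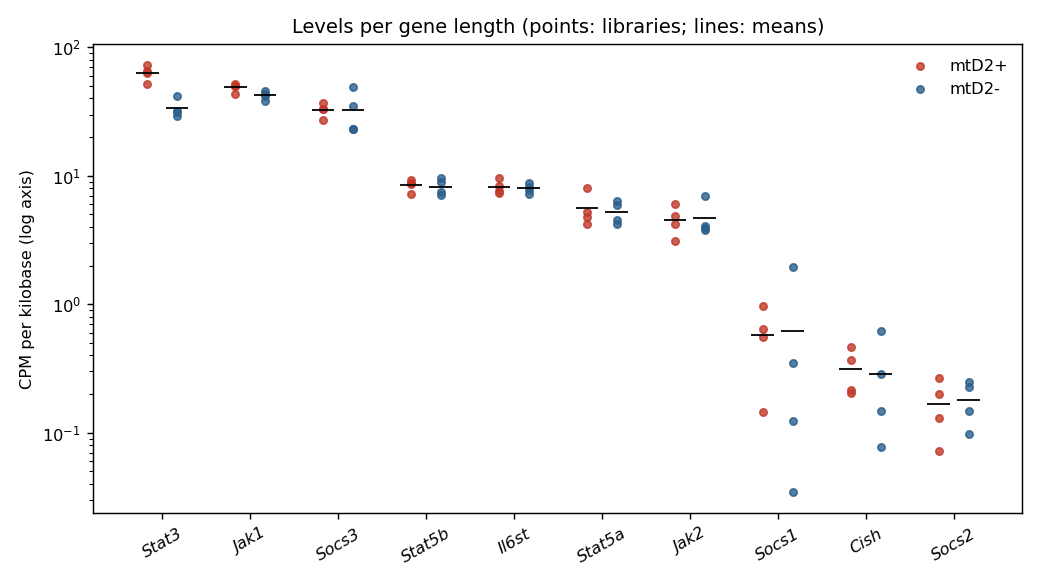
Level of each member in CPM per kilobase of gene length on a log axis, for mtD2+ (red, left) and mtD2- (blue, right), with 1 point per library and lines at the means. Stat3 parts the groups (51.5 to 72.5 in mtD2+, 29.4 to 42.0 in mtD2-), while the libraries of each of the other 9 members overlap between the groups, and Socs1, Cish and Socs2 lie far below the rest.

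The remaining STAT, JAK and SOCS genes gave no call. Of the 10, 0 passed in edgeR's test, in DESeq2 or in limma voom, and 1 was higher and 0 lower at an unadjusted p under 0.05. Their median log2 fold change was 0.11. The gene past the unadjusted threshold was Stat4, the transcription factor of interleukin 12 signalling, with 3.83, 3.27, 5.32 and 4.13 CPM in mtD2+, against 1.42, 1.47, 3.53 and 2.25 CPM in mtD2-. It was higher in mtD2+ in 4 of 4 mice with overlapping groups (log2 fold change 1.00, SE 0.41, adjusted p = 0.187). Stat2, which carries interferon signals, stood at a log2 fold change of 0.12, and Stat6, which answers interleukin 4, at 0.17. The kinase genes Tyk2 and Jak3 had log2 fold changes of 0.09 and -0.56. Socs4, Socs5, Socs6 and Socs7 had -0.34, 0.13, -0.26 and 0.39. Within mice, Socs4 and Socs6 were lower in mtD2+ in 4 of 4 mice, and Stat2 and Stat6 were higher in 4 of 4, all with overlapping groups and adjusted p between 0.307 and 0.508.

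**Figure D3:**
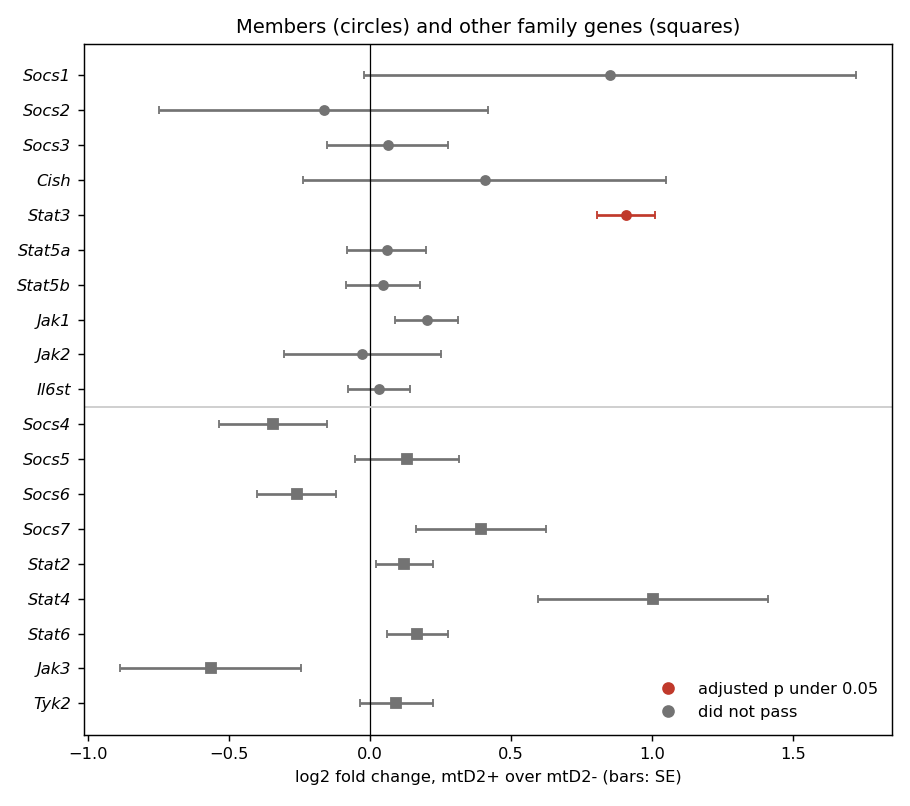
Log2 fold change of mtD2+ over mtD2- with its SE for the 10 members (circles) and 9 other SOCS, STAT and JAK genes (squares), red where the adjusted p was under 0.05. Stat3, at 0.91 with an SE of 0.10, is the red point, and Socs1, Socs2 and Cish have the widest bars.

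Among cytokines that signal through JAKs, 1 of the 15 tested genes of a list of 23 was called higher in mtD2+ (4 higher and 1 lower at an unadjusted p under 0.05), and the list's median log2 fold change was 0.22. Without mouse 4 the list gave 3 calls, all higher, beside 432 higher and 123 lower of all 14045 genes tested in that fit. The called gene was Ifnb1, interferon beta, whose receptor uses Jak1 and Tyk2 (chromosome 4, 88522025 to 88522774). It had 428, 253, 176 and 217 CPM in mtD2+, against 150, 62.6, 46.1 and 129 CPM in mtD2-. No libraries of the groups overlapped, and Ifnb1 rose by 1.56 on the log2 scale (SE 0.20, adjusted p = 0.00495), a call lost without the mouse block (adjusted p = 0.0710). Il10, the macrophage cytokine that acts through STAT3, had 96.7, 83.4, 96.2 and 72.7 CPM in mtD2+, against 52.0, 31.7, 41.9 and 75.3 CPM in mtD2-. Mice 1 to 3 were clearly higher in mtD2+ and mouse 4 was level. Its log2 fold change of 0.86 (SE 0.22) did not pass (adjusted p = 0.0564), but it passed in 5 of the 11 other settings, at 1.16 without mouse 4 (adjusted p = 0.00599).

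Ligands of Il6st, named after their values were seen, did not pass in edgeR's test, while DESeq2 called Il6 and Osm higher and Ebi3 lower (adjusted p 0.0350, 0.0311 and 0.0498). Il6 had 23.1, 14.3, 7.88 and 21.3 CPM in mtD2+, against 8.66, 6.35, 8.66 and 10.4 CPM in mtD2-. It was higher in mtD2+ in mice 1, 2 and 4, and the fitted difference was 0.88 on the log2 scale (SE 0.29, adjusted p = 0.112). Osm, oncostatin M, had 89.5, 66.5, 80.3 and 67.5 CPM in mtD2+, against 41.1, 23.3, 48.8 and 97.8 CPM in mtD2- (0.71, SE 0.29, adjusted p = 0.186). Mouse 4 alone was higher in mtD2-, and without it Osm passed at 1.11 (adjusted p = 0.0145). Lif stood at 0.22 and Il27 at -0.92. Ebi3, the partner subunit of Il27, was at -0.45 (adjusted p = 0.0916) and lower in mtD2+ in 4 of 4 mice. Il11 and Ctf1 were at or below 0.0566 and 0.378 CPM in every library. Clcf1 had 0 counts in all 8 libraries, where 3 counts correspond to 0.109 to 0.162 CPM and mark the limit of detection.

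Receptor chains followed with 2 of 25 tested genes higher in mtD2+ (4 higher and 2 lower at an unadjusted p under 0.05), and a median log2 fold change of 0.06. Lifr, the LIF receptor chain that pairs with Il6st, had 555, 460, 543 and 448 CPM in mtD2+, against 478, 296, 394 and 272 CPM in mtD2-. Il2rg, the common gamma chain, had 191, 170, 164 and 265 CPM in mtD2+, against 140, 115, 108 and 195 CPM in mtD2-. In 4 of 4 mice each was higher in mtD2+, although the groups overlapped. Lifr rose by 0.51 (SE 0.12, adjusted p = 0.0412) and Il2rg by 0.51 (SE 0.10, adjusted p = 0.0240) on the log2 scale. Neither passed without the block (adjusted p 0.211 and 0.251) or without mouse 1, 2 or 3 (0.0765, 0.120 and 0.145 for Lifr; 0.100, 0.0829 and 0.126 for Il2rg). Lifr also missed without mouse 4 (0.0884) and with library totals (0.0643). The other partners of Il6st and the chains for interleukin 10 did not pass. Il6ra stood at 0.15, Il27ra at 0.32, Il11ra1 at -0.37, Il10ra at -0.19 and Il10rb at 0.14. Osmr, with at most 6.16 CPM in a library, stood at -0.71 (SE 1.17) and turned to 0.35 without mouse 3.

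Inhibitors outside the SOCS family, among them phosphatases, PIAS proteins and ubiquitin ligases, gave 0 calls of 14 tested in edgeR, DESeq2 and limma voom. At an unadjusted p under 0.05 in edgeR's test, 1 was higher and 1 lower. The pair were Pias2, at 0.56 (SE 0.19, adjusted p = 0.119), and Pias3, whose protein binds and inhibits STAT3, at -0.44 (SE 0.13, adjusted p = 0.0795). Pias3 had 29.1, 34.7, 51.1 and 30.6 CPM in mtD2+, against 37.5, 44.6, 68.8 and 46.5 CPM in mtD2-. It was lower in mtD2+ in 4 of 4 mice, with overlapping groups.

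Of 20 genes known to respond to STAT3, 3 rose in mtD2+ macrophages (6 higher and 2 lower at an unadjusted p under 0.05), and the median log2 fold change of the list was 0.36. Bcl6, a transcriptional repressor, had 85.1, 71.1, 90.1 and 141 CPM in mtD2+, against 55.3, 40.3, 58.6 and 90.1 CPM in mtD2- (log2 ratio fitted at 0.68, SE 0.11, adjusted p = 0.0108). Sbno2, a corepressor of the interleukin 10 response, had 195, 172, 228 and 146 CPM in mtD2+, against 136, 96.3, 125 and 120 CPM in mtD2- (0.63, SE 0.13, adjusted p = 0.0271). Fosl2, an AP-1 subunit, had 161, 140, 231 and 220 CPM in mtD2+, against 97.2, 86.2, 114 and 198 CPM in mtD2- (0.65, SE 0.14, adjusted p = 0.0377). The groups of Sbno2 did not overlap, and those of Bcl6 and Fosl2 did, although all 4 mice were higher in mtD2+ for each. All 3 calls were lost without the block (adjusted p 0.209, 0.0750 and 0.253 for Bcl6, Sbno2 and Fosl2) and without mouse 1, 2 or 3 (0.0521 to 0.0614 for Bcl6, 0.0971 to 0.139 for Sbno2, 0.116 to 0.166 for Fosl2). Without mouse 4 the list gave 9 higher and 1 lower, with a median of 0.60. Of all 14045 genes tested in that fit, 432 were higher and 123 lower. The dissociation-responsive genes had a median of 0.62 without mouse 4 and 0.42 with all mice. Summed, the list had 3669, 2897, 3696 and 3142 CPM in mtD2+, against 2603, 2212, 2450 and 4022 CPM in mtD2-. Mouse 4 alone was higher in mtD2- on that sum. Junb alone stands on both this list and the dissociation-responsive list (log2 fold change 0.36, adjusted p = 0.536 in edgeR's test).

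Of 14 genes known to respond to STAT5, 1 rose and 2 fell (4 higher and 2 lower at an unadjusted p under 0.05), and the median log2 fold change was 0.40. The gene that rose was Bcl6, which is on both lists. The list does not separate genes that STAT5 induces from those it represses, so its counts and median carry no direction of STAT5 activity. Without mouse 4 the list gave 5 higher and 2 lower. Across the pathway lists 5 genes stand on 2 lists, so the list counts are not separate results. Among them, Il10 is a ligand and on the STAT3 list, and Osm is a ligand and on the STAT5 list. Both passed without mouse 4. Ccnd1, a cyclin that drives cells into division, had 20.6, 24.5, 17.4 and 20.8 CPM in mtD2+, against 36.2, 50.1, 31.9 and 39.4 CPM in mtD2-. Ccnd2, a related cyclin, had 32.0, 44.7, 46.2 and 51.0 CPM in mtD2+, against 61.0, 68.7, 69.5 and 79.6 CPM in mtD2-. Neither gene's groups overlapped. Ccnd1 fell by 0.91 (SE 0.14, adjusted p = 0.00930) and Ccnd2 fell by 0.69 (SE 0.12, adjusted p = 0.0152) on the log2 scale. Both calls were lost without mouse 1, 2 or 3 (adjusted p 0.0504 to 0.0556 for Ccnd1 and 0.0579 to 0.0889 for Ccnd2), and that of Ccnd2 without the block (0.0597). Fibroblasts also express cyclins, and the fibroblast marker sum was lower in mtD2+ in 4 of 4 mice. Its part in these values was not tested.

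**Figure D4:**
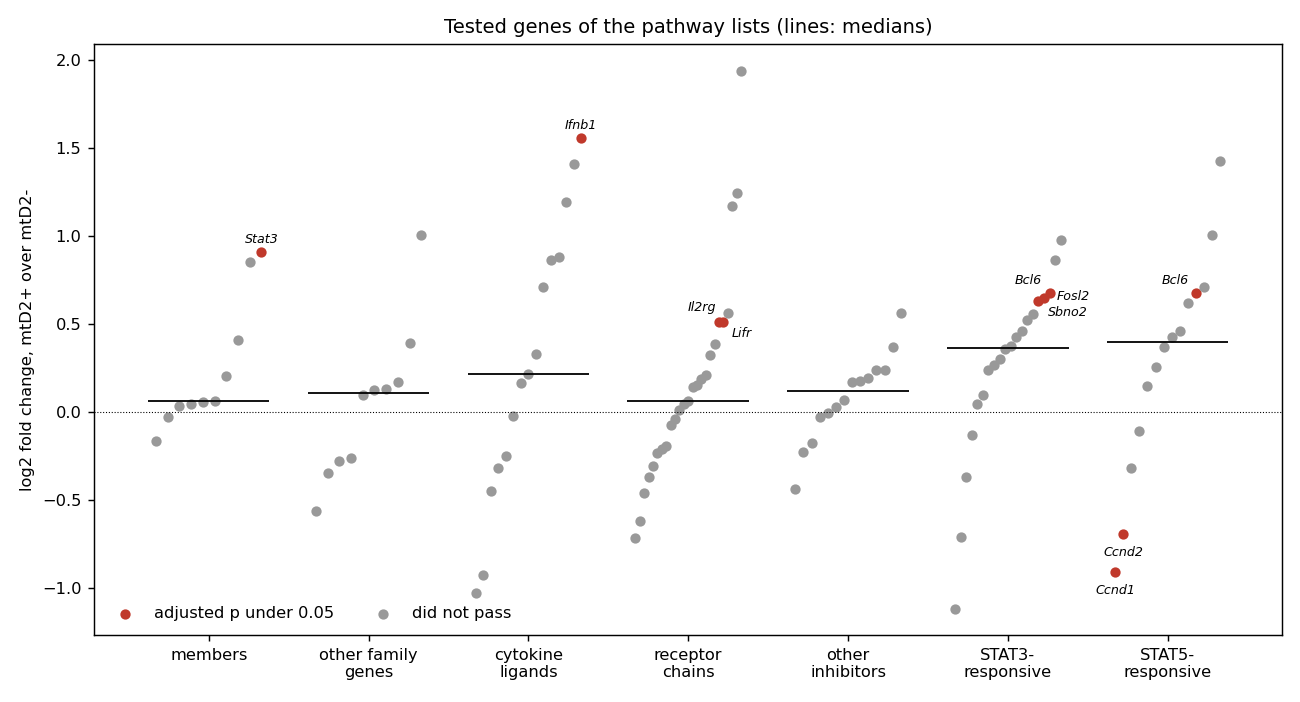
Log2 fold change of mtD2+ over mtD2- for every tested gene of the members and of 6 further lists, with red points and names where the adjusted p was under 0.05 and lines at the list medians. Calls were 1 of 10 members, 0 of 10 other family genes, 1 of 15 ligands, 2 of 25 receptor chains, 0 of 14 other inhibitors, 3 of 20 STAT3-responsive and 3 of 14 STAT5-responsive genes.

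Mouse by mouse, Stat3 had log2 ratios of 0.79 to 1.06, and Il2rg (0.44 to 0.60) and Bcl6 (0.62 to 0.82) also kept 1 direction in all 4 animals. Socs3, Osm and the summed STAT3-responsive genes were higher in mtD2+ in mice 1 to 3 and lower in mouse 4, although Socs3 was nearly level in mouse 3 (0.07). In mouse 4 the log2 ratios were -0.85 for Socs3, -0.53 for Osm and -0.36 for the summed genes. Il10 was higher in mtD2+ in mice 1 to 3 and level in mouse 4 (-0.05). The dissociation genes had summed log2 ratios of 0.57, 0.84, 0.66 and 0.07 in mice 1 to 4. The fibroblast markers had -1.32, -1.02, -1.57 and -2.40. In mouse 4 both sums thus had their lowest ratios. Their part in the values of Socs3, Il10 and the STAT3-responsive genes was not tested.

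**Figure D5:**
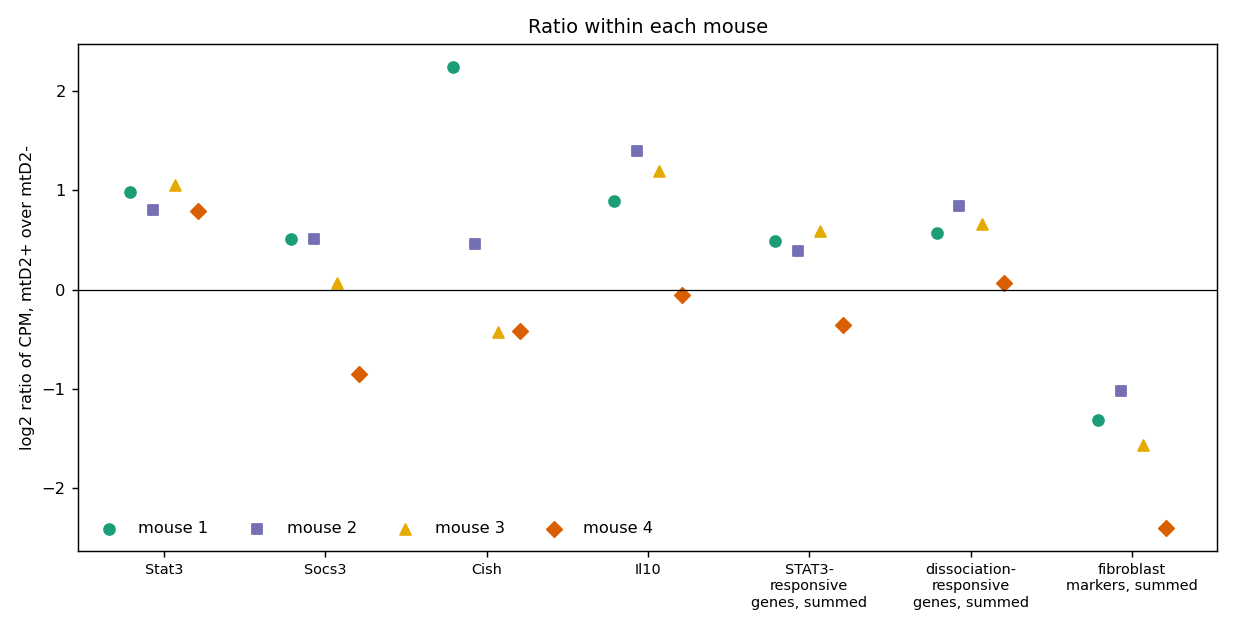
Log2 ratio of CPM, mtD2+ over mtD2-, within each of the 4 mice for 4 genes and 3 summed lists, with 1 symbol and colour per mouse. Stat3 keeps 0.79 to 1.06 in every mouse, whereas Socs3 (-0.85), the STAT3-responsive sum (-0.36), the dissociation sum (0.07) and the fibroblast sum (-2.40) have their lowest ratios in mouse 4.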

How the data were processed

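RNA of 8 libraries (4 mice, mtD2+ and mtD2- from each) was amplified with a low-input SMARTer kit, per the labels. The submitters' processing notes name bcl2fastq, STAR 2.0.4b, Subread and featureCounts 1.45 with the build GRCm38, and no source used here states the counting options or the strandedness. The authors deposited, for each of 41388 Ensembl genes, a whole-number count, a CPM and an RPKM, and only the deposited counts were tested. Symbols came from GENCODE M21 (40254 genes matched, 1134 did not).

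The test was that of edgeR 4.0.16 under R 4.3.3 (quasi-likelihood F test, TMM factors, mouse as a block, expression filter with a minimum count of 10), which kept 13933 genes, and p-values were Benjamini-Hochberg adjusted over all of them. Replicates are separate mice. Fold changes are mtD2+ over mtD2-. The printed CPM uses TMM-scaled totals, and gene length is that in the deposited tables. Pairing rests on the labels, which give a mouse identifier for every library, and on the design text, which compares the populations pair-wise. Deviations from the group mean correlated between the libraries of mice 1 to 4 at 0.04, 0.07, 0.15 and 0.25, and in mouse 1 a library of another mouse correlated more (0.06). Between replicates of a group the chi-square of the counts was 35.2 to 155.4 times its degrees of freedom, so no library repeats another of its group. Libraries of different groups were not compared in this way.

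The members and lists were chosen with earlier results of these data known. The text names all members, 9 of the 10 other family genes (the remaining gene is counted but not reported here), and of each pathway list the called genes, up to the 4 with the smallest p, or the 2 with the smallest p where fewer than 2 were called. The partners of Il6st and Il10 were added after their values were seen. Alternatives were no block, 2 scalings, 2 filters, DESeq2 1.42.0, limma 3.58.1 (voom), Stat5a and Stat5b summed, and leaving out each mouse. Promoter sequences are from RefSeq. The RefSeq table holds 11 windows for 9 members, and Socs2 is not among them.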

Additional observations from a re-analysis of the deposited data

Results flagged for a closer look

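In 128 groups of 4 libraries, 7 values stood far from the other 3 of their group, and chance gives about 1 in 20. Among the members, Socs1 stood at 2.39 CPM in the mtD2- library of mouse 4, against 0.0421 to 0.423 CPM in the other 3 mtD2- libraries. Jak2 stood at 35.1 CPM in the mtD2- library of mouse 3, against 19.0 to 20.3 CPM. Ctf1, a ligand of Il6st, was seen in mouse 2 alone, at 0.148 CPM (4 counts) in mtD2+ and 0.378 CPM (10 counts) in mtD2-. The summed other SOCS, STAT and JAK genes reached 744 CPM in the mtD2+ library of mouse 3, against 629.6 to 633 CPM in the other mtD2+ libraries. Among the marker lists, the fibroblast sum was 4798 CPM in the mtD2- library of mouse 4, against 1909.8 to 2083 CPM. The sum of neutrophil and mast cell markers was 6.56 CPM in the mtD2- library of mouse 3, against 0.138 to 1.00 CPM.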

How the results depend on the processing

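Of all tested genes 519 were higher and 248 lower. Without the replicate block, that is without the pairing by mouse, 147 were higher and 71 lower. DESeq2's Wald test called 1117 higher and 673 lower. Leaving out mouse 1, 2, 3 or 4, with fewer samples in each fit, gave 169, 192, 120 or 432 higher and 46, 81, 46 or 123 lower. The cause of these shifts was not tested. The members gave 1 higher and 0 lower in each of these settings. With library totals the split was 407 higher and 349 lower, and the median of all genes was -0.06.

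Among 45 single genes checked, signs turned for genes that did not pass. Without the replicate block Socs1 was at -0.084 and Socs3 at -0.0047. With library totals Stat5b was at -0.011, Il6st at -0.024 and Ptprc at -0.038. Leaving out each mouse in turn gave -0.50 to 0.059 for Socs2, -0.089 to 0.36 for Socs3, -0.14 to 0.72 for Cish, -0.038 to 0.14 for Stat5a, -0.045 to 0.12 for Stat5b, -0.23 to 0.35 for Jak2 and -0.023 to 0.074 for Il6st. It gave -0.0013 to 0.20 for Tyk2, -0.063 to 0.063 for Ptprc, -0.11 to 0.46 for Lif and -1.66 to 0.35 for Osmr. The cause was not tested, beyond the mice named beside these genes. Socs1 did not reach 1 CPM in 4 libraries, so that filter gives it no value. Socs1, Socs2 and Cish had at most 87 counts in a library.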
